A study of Mus musculus with 1 sample.

Results

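The machinery of regulated exocytosis is described here as a fixed list of 39 genes, out of 32285 genes counted in 1 single-cell RNA sequencing library of mouse adrenal medulla. The members were chosen by symbol, with earlier results of these data known. They are SNARE proteins (*Snap25*, *Snap23*, *Stx1a*, *Vamp1* to *Vamp3*), priming factors (*Unc13a*, *Unc13b*, *Cadps*, *Cadps2*, *Rims1*, *Rims2*), complexins, synaptotagmins and other regulators of fusion, the small GTPases of the Rab3 and Rab27 families with their effectors, the SNARE recycling factors *Nsf*, *Napa* and *Napb*, and the vesicle proteins of the SV2 and synapsin families. All 39 symbols were found once in the gene list, and all 39 had at least 1 unique molecular identifier (UMI, 1 count for 1 captured transcript molecule) in chromaffin-like cells.

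The library held the medullae of 10 adrenals from 5 wild-type, untreated mice of both sexes at postnatal day 15, pooled after fat and excess cortex had been trimmed off by hand and the tissue digested with enzymes, and 10000 viable cells were loaded. It was made with 10x 3′ chemistry, so that a UMI is read near the 3′ end of a transcript and levels were not divided by gene length. Since 1 library was made there are no replicates, no comparison between samples and no test. The 95% intervals given are exact (Poisson for levels, conditional binomial for ratios, Clopper-Pearson for shares) and cover counting error only.

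Chromaffin cells of the adrenal medulla store catecholamines and peptides in dense-core granules and release them when calcium enters the cell. A granule is brought to the plasma membrane by Rab3 and Rab27 and their effectors, primed by the Munc13 and CAPS proteins, and fused when VAMP on the granule zips up with syntaxin and SNAP25 on the plasma membrane. Complexins and synaptotagmins make this step depend on calcium, and NSF with its SNAP adaptors takes the spent SNARE complexes apart again. Most of these proteins were first studied at the synapse, and many come as paralogues that are used in different cell types.

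Of 11214 barcodes, 10139 passed the filters, with a median of 3567 UMIs, and are called cells here. That is more than the 10000 viable cells loaded, and the cause was not tested. The passing cells were clustered on all genes and the clusters were named from marker lists. The label of the tissue was met by part of the cells: 2059 were chromaffin-like (1669 adrenaline, with the adrenaline-forming enzyme gene *Pnmt*, and 390 noradrenaline, mostly without it), 134 were cycling chromaffin-like, 414 were transitioning-like, carrying chromaffin and sustentacular markers together, while 3715 were cortex-like, 2150 endothelial-like, 626 immune-like and 89 fibroblast-like. A further 730 cells carried markers of several types (68.5% of them called doublets by Scrublet) and 43 could not be named, and both sets entered no comparison. A cluster of 179 cells carried the sustentacular (glial) markers *Lgi4*, *Fabp7*, *Sfrp1*, *Cdh19*, *Sox10* and *S100b*. None of them was among its 10 genes of largest fold over all other passing cells, which included the transitioning-like cells. For every class this ranking took only genes found in at least 25% of its cells. It added 10 UMIs per 1000000 to both levels. The markers of the noradrenaline, transitioning-like and cycling classes were not looked for in this way. Unlike those classes, the cluster of 179 cells had a median, 1149 UMIs, below 1189, the median of all passing cells divided by 3. For both reasons together it is called the glial-marker cluster here and given no cell type. No member was among the 10 genes of largest fold of any class.

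The level of a gene in a class is its UMIs summed over the cells of the class per 1000000 UMIs of the class (CPM). Summed over the 39 members, adrenaline chromaffin-like cells stood at 4205 CPM (interval 4159 to 4252) and the noradrenaline cells at 4436 CPM (4323 to 4551). The sum was 4270 CPM (4190 to 4351) in transitioning-like and 3520 CPM (3402 to 3642) in cycling chromaffin-like cells. It was 505.8 CPM in cortex-like, 437 CPM in endothelial-like, 330 CPM (299.5 to 362.6) in immune-like and 780.0 CPM (680.8 to 889.7) in fibroblast-like cells, which also carried 3155 CPM of the 7 chromaffin markers. The sum was thus lowest outside the chromaffin-like and transitioning-like cells.

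**Figure D1:**
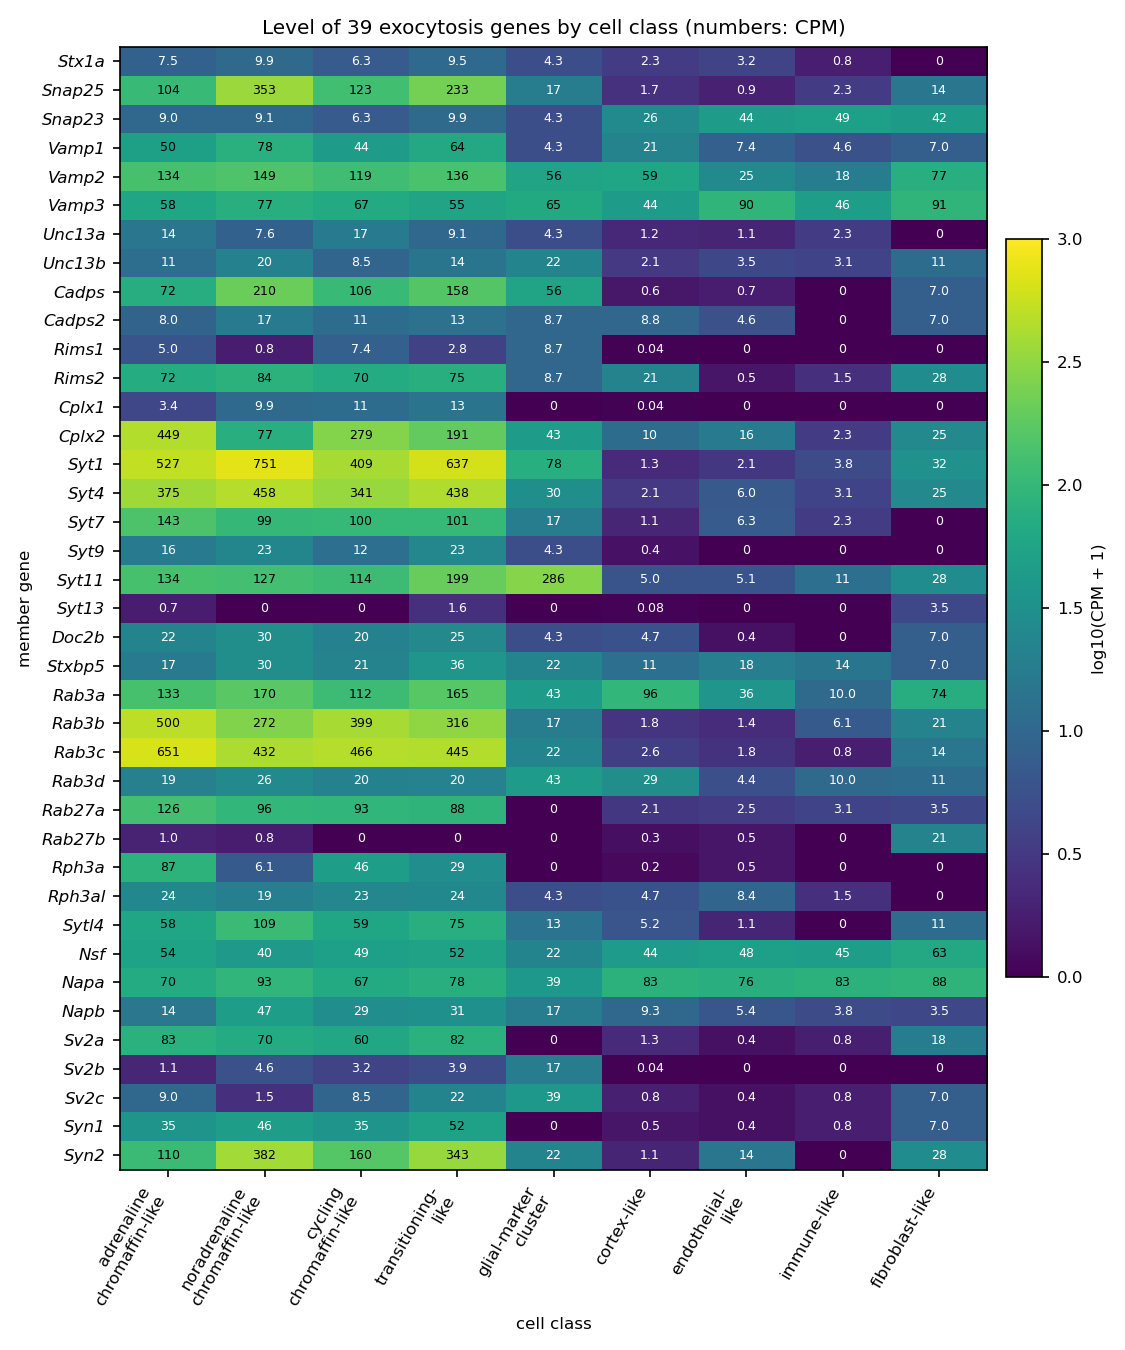
Level of each of the 39 members (rows, grouped by role) in 9 cell classes (columns), coloured by log10(CPM + 1) with the CPM printed in each cell. *Rab3c*, *Syt1*, *Rab3b*, *Cplx2* and *Syt4* are brightest in chromaffin-like cells, while *Snap23* and *Napa* are as bright or brighter in cortex-like and endothelial-like cells.

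In chromaffin-like cells *Rab3c* stood at 617 CPM, *Syt1* at 561 CPM, *Rab3b* at 466 CPM, *Cplx2* at 392 CPM and *Syt4* at 388 CPM, and these 5 genes held 57.2% of all member UMIs. They encode small GTPases of the granule, synaptotagmins and a complexin. The SNARE genes themselves were lower: *Snap25* stood at 142 CPM, *Vamp2* at 136 CPM and *Stx1a*, the syntaxin of the plasma membrane, at 7.84 CPM (6.09 to 9.94). The next below the leading 5, *Syn2* at 152 CPM, was less than 2-fold above the eleventh, *Syt11* at 133 CPM, and the levels of *Snap25*, *Rab3a*, *Vamp2*, *Syt7* and *Syt11* could not be ordered from these counts. At the lower end *Sv2b* stood at 1.61 CPM, *Rab27b* at 0.922 CPM and *Syt13* at 0.576 CPM, the last from 5 UMIs in 2059 cells.

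The first comparison was between adrenaline and noradrenaline chromaffin-like cells. Of the 39 members, 31 averaged at least 10 CPM over both classes and were compared. At least 2-fold higher in adrenaline cells were 2 members, *Cplx2* and *Rph3a*, while 4.20% of all 8235 genes compared were so. At least 2-fold higher in noradrenaline cells were 5 members, *Snap25*, *Syn2*, *Cadps*, *Napb* and *Cadps2*, while 5.14% of all genes were so. The median adrenaline to noradrenaline ratio of the 31 members was 0.756, beside 0.978 over all genes compared. The interval of the ratio lay above 1 for 6 and below 1 for 14 of the 31, and above 1 for 1198 and below 1 for 1437 of the 8235 genes. The filter is passed by a gene that is high in only 1 class, which held for *Rph3a* and *Unc13a* (below 10 CPM in noradrenaline cells) and *Cadps2* (below 10 CPM in adrenaline cells), and the background percentages were counted with the same filter. Because the list was chosen with earlier results of these data known, the counts are descriptions. Between adrenaline and noradrenaline cells the cortex markers summed to 187 and 199.6 CPM, the red-cell genes to 2187 and 1877 CPM, the sustentacular markers to 3.67 and 45.5 CPM and the mural markers to 5.85 and 80.5 CPM, and their part in the result was not tested.

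The start regions of the 4 members with the largest differences that RefSeq's table holds are printed because these genes differ between the chromaffin types. Each is 1 window of 300 bases (250 before and 50 after the annotated start, GRCm38.p6), read 5′ to 3′ on the strand of the gene. The *Cplx2* window surrounds a RefSeq start that lies upstream of the gene as GENCODE draws it on GRCm38 (chr13:54371349-54383917), while the other 3 windows span the GENCODE start. Capitals mark matches to the motifs GCGGGGGCG (the EGR1 consensus) and GGGCGG (the GC box) on either strand.
*Cplx2*, higher in adrenaline cells, chr13:54302306-54302605, plus strand: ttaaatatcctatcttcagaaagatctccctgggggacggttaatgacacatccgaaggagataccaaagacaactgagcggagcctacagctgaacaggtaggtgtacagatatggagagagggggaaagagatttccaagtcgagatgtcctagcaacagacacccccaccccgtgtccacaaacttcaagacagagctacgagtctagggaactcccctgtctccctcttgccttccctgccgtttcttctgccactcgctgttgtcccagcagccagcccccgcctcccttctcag
*Rph3a*, higher in adrenaline cells, first of 3 windows, chr5:121010043-121010342, minus strand: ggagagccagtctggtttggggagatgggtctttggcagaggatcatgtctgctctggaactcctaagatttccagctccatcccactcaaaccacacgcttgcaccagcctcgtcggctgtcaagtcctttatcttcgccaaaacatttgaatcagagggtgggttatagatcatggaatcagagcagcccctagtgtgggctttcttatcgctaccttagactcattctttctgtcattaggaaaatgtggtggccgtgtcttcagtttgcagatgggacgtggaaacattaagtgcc
*Syn2*, higher in noradrenaline cells, first of 2 windows, chr6:115134652-115134951, plus strand: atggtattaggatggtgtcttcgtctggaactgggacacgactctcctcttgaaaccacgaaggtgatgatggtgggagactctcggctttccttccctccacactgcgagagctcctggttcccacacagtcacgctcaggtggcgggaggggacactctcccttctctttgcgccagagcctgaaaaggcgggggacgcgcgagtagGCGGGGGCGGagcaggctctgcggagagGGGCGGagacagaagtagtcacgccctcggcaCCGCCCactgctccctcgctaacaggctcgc
*Cadps*, higher in noradrenaline cells, chr14:12823030-12823329, minus strand: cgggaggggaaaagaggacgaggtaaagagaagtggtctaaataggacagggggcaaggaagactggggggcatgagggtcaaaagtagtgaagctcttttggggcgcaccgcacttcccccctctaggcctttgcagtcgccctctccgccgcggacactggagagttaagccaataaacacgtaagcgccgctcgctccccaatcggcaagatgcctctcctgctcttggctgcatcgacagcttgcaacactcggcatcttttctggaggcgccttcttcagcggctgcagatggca

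The search covered 4 motifs, on both strands, in the 39 windows that RefSeq's table holds for 30 members and in its 32851 windows in all. The hexamer TGTTCT of glucocorticoid response elements was in 12.8% of member windows (*Rab3c*, *Rph3a*, *Rph3al*, *Sv2b*) and in 19.0% of all windows. The EGR1 motif was in 3 of the 39 member windows (7.69%; *Cplx1*, *Stxbp5*, *Syn2*) and in 2.91% of all. The cAMP response element TGACGTCA was in 2 of the 39 (5.13%; *Napa*, *Syn1*) and in 1.79% of all. The GC box was in 59.0% of member windows and 35.7% of all. The median GC content was 60.3% in member windows and 52.7% in all, and the EGR1 motif and the GC box hold only G and C. The GC box and the EGR1 motif overlap in *Syn2*. The printed windows of *Cplx2*, *Rph3a* and *Cadps* held none of the 4 motifs, and the matches counted for *Rph3a* lay in its other windows.

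*Cplx2* encodes complexin 2, a small protein that binds the assembled SNARE complex. It stood at 449 CPM (3302 UMIs) in adrenaline cells and at 77.4 CPM (102 UMIs) in noradrenaline cells, a ratio of 5.80 (4.76 to 7.13). A *Cplx2* UMI was found in 72.3% of adrenaline and 20% of noradrenaline cells, and with every cell thinned to 1000 UMIs in 34.3% (32.0 to 36.7) and 5.99% (3.80 to 8.94). The share of cells with the gene thus also differed between the chromaffin types at equal depth. Its level in noradrenaline cells still lay above that in cortex-like cells, 10.5 CPM, and endothelial-like cells, 15.9 CPM. *Pnmt*, which marks the adrenaline cells, stood at 11670 CPM in adrenaline and 189.8 CPM in noradrenaline cells. With the noradrenaline cells that had a *Pnmt* UMI left out, which kept 329 of 390, the *Cplx2* ratio was 6.31. With cells assigned singly by the markers they held, and not by cluster, the ratio was 2.66. The paralogue *Cplx1* was low, at 3.40 CPM in adrenaline and 9.87 CPM in noradrenaline cells, below the filter.

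*Rph3a*, for rabphilin 3A, an effector of Rab3 and Rab27 that binds calcium, had the largest ratio of the list. It stood at 87.1 CPM (641 UMIs) in adrenaline cells and at 6.07 CPM (8 UMIs) in noradrenaline cells, a ratio of 14.4 (7.24 to 33.4), or 16.3 without the noradrenaline cells that held *Pnmt* and 6.52 with cells assigned singly by their markers. Its relative *Rph3al* (Noc2), which shares the Rab-binding part, did not follow: it stood at 24.5 and 19.0 CPM, a ratio of 1.29 (0.846 to 2.05). Of the UMIs of both genes, *Rph3a* held 78.1% (75.1 to 80.9) in adrenaline and 24.2% (11.1 to 42.3) in noradrenaline cells.

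*Snap25* encodes a SNARE of the plasma membrane. It stood at 104 CPM (765 UMIs) in adrenaline and at 353 CPM (465 UMIs) in noradrenaline cells, 3.39-fold higher (3.02 to 3.81) in the latter. After thinning, 9.05% (7.71 to 10.5) of adrenaline and 27.8% (23.3 to 32.7) of noradrenaline cells had a *Snap25* UMI, so the difference was also present at equal depth. The other SNARE genes differed less. *Vamp2* stood at 134 and 149 CPM, with an adrenaline to noradrenaline ratio of 0.903 (0.774 to 1.06), *Vamp3* at 57.5 and 77.4 CPM and *Vamp1* at 49.8 and 78.2 CPM (0.636, 0.51 to 0.8). *Snap23* (8.97 and 9.11 CPM) and *Stx1a* (7.48 and 9.87 CPM) were below the filter.

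*Syn2*, for synapsin 2, which holds vesicles to the cytoskeleton, had the largest difference in the same direction. It stood at 110.1 CPM (810 UMIs) in adrenaline and 382 CPM (504 UMIs) in noradrenaline cells, 3.47-fold higher (3.10 to 3.89) in the latter. *Syn1* stood at 34.5 and 46.3 CPM, where the interval of the ratio (0.562 to 1.00) reached 1. Counts of *Syn2* are uncertain in that the gene *Gm17482* overlaps it on the same strand.

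*Cadps*, for the granule priming factor CAPS1, stood at 72.2 CPM (531 UMIs) in adrenaline and 210.2 CPM (277 UMIs) in noradrenaline cells, 2.91-fold higher (2.51 to 3.37) in the latter. Its paralogue *Cadps2* was lower in both, at 8.02 and 16.7 CPM, and 2.08-fold higher (1.22 to 3.45) in noradrenaline cells; only 59 and 22 UMIs stood behind this ratio, and the adrenaline to noradrenaline ratio, 0.480, became 0.505 without the cells that had 5 or more hemoglobin UMIs and 0.501 without the noradrenaline cells that had a *Pnmt* UMI, so that it no longer passed 2-fold. *Cadps2* also shares its strand with *Rnf133* and *Rnf148*. Of the Munc13 genes, *Unc13a* stood at 13.9 and 7.59 CPM, with an interval of the ratio (0.954 to 3.92) that included 1, and *Unc13b* at 11.0 and 19.7 CPM, 1.79-fold higher (1.11 to 2.82) in noradrenaline cells. The RIM scaffold gene *Rims2* stood at 71.6 and 84.2 CPM (0.692 to 1.05), and *Rims1* was detected with 37 UMIs and 1 UMI.

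*Napb*, for the adaptor beta-SNAP that is known from neurons, stood at 14.4 CPM (106 UMIs) in adrenaline and 47.1 CPM (62 UMIs) in noradrenaline cells, 3.27-fold higher (2.35 to 4.51) in the latter. The widely used *Napa* (alpha-SNAP) stood at 70.0 and 92.6 CPM, 1.32-fold higher (1.08 to 1.61) in noradrenaline cells. *Nsf*, the ATPase that both adaptors serve, stood at 53.6 and 40.2 CPM, with an interval of the ratio (0.998 to 1.81) that included 1.

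**Figure D2:**
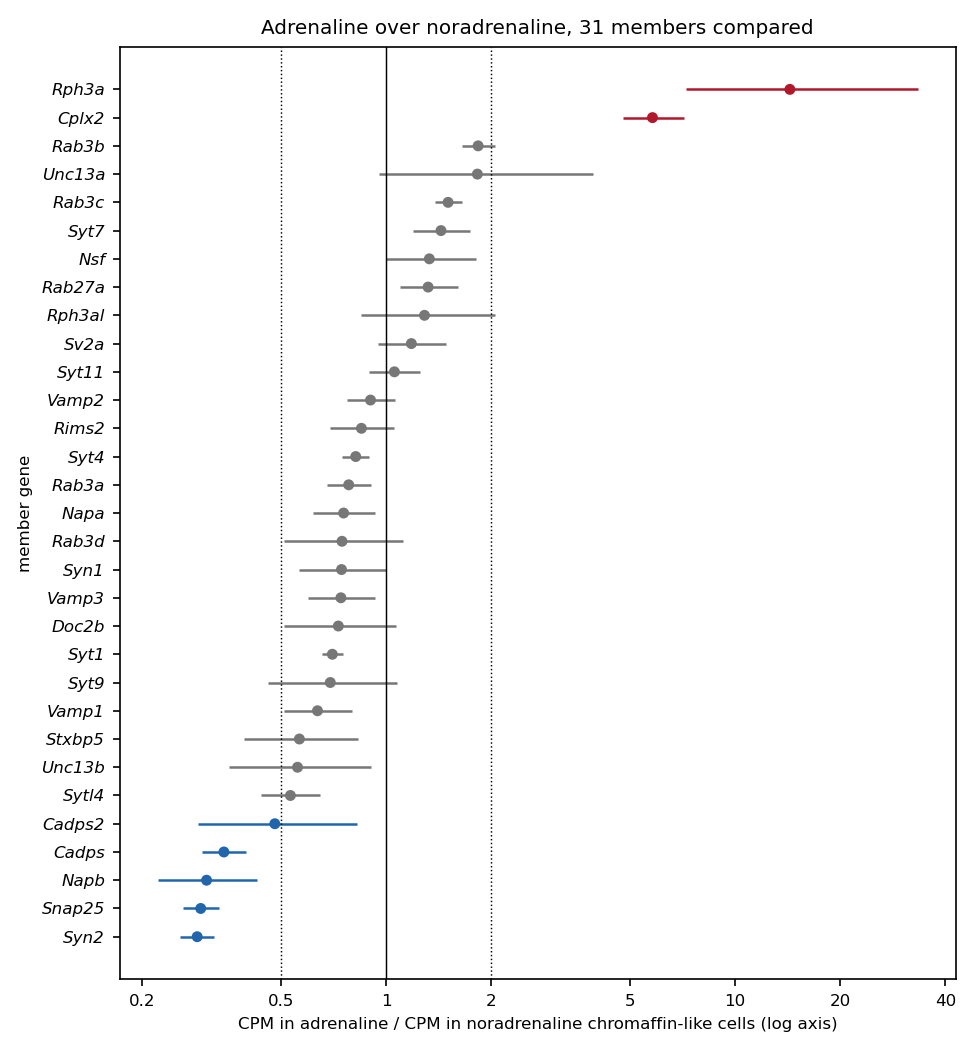
Ratio of CPM in adrenaline over noradrenaline chromaffin-like cells (horizontal log axis) for the 31 members compared (vertical axis), with 95% intervals for counting error, a solid line at 1 and dotted lines at 2-fold. *Rph3a* and *Cplx2* lie above 2 (red), and *Syn2*, *Snap25*, *Napb*, *Cadps* and *Cadps2* lie below 0.5 (blue).

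The Rab3 genes each differed by less than 2-fold. *Rab3b* stood at 500.2 CPM in adrenaline and 272 CPM in noradrenaline cells, a ratio of 1.84 (1.65 to 2.05), and *Rab3c* at 651 and 432 CPM, a ratio of 1.51 (1.38 to 1.65). *Rab3a* ran the other way, at 133 and 170.0 CPM (0.782, 0.676 to 0.908), so that its share of the UMIs of the 4 Rab3 genes was 10.2% in adrenaline and 18.9% in noradrenaline cells. *Rab3d* stood at 19.3 and 25.8 CPM (0.512 to 1.12). *Rab27a*, the main Rab27 of these cells with 99.2% of the UMIs of both, stood at 126 and 95.6 CPM (1.32, 1.10 to 1.60), while *Rab27b* had 7 UMIs and 1 UMI.

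*Syt1*, the fast calcium sensor, stood at 527 and 751 CPM, 1.43-fold higher (1.33 to 1.53) in noradrenaline cells, and *Syt4*, which binds calcium poorly, at 375 and 458 CPM (1.22, 1.12 to 1.33). *Syt7*, the slow sensor of high calcium affinity, was 1.44-fold higher (1.2 to 1.74) in adrenaline cells, at 143 and 99.4 CPM. *Syt11* (134 and 127 CPM) and *Syt9* (15.8 and 22.8 CPM) had intervals of the ratio that included 1, and *Syt13* had 5 UMIs and 0 UMIs. *Syt1* counts are uncertain in that *Gm5136* overlaps the gene on the same strand.

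Among the remaining regulators, *Sytl4* (granuphilin, a Rab27 effector that docks granules) stood at 58.2 and 109 CPM, 1.88-fold higher (1.54 to 2.27) in noradrenaline cells. *Stxbp5* (tomosyn, which holds syntaxin and SNAP25 away from VAMP) stood at 16.7 and 29.6 CPM, 1.77-fold higher (1.2 to 2.56) in noradrenaline cells. *Doc2b*, another calcium sensor, stood at 21.6 and 29.6 CPM (0.512 to 1.06), and *Sv2a*, a glycoprotein of the vesicle membrane, at 82.5 and 69.8 CPM (0.948 to 1.49). *Sv2c* had 66 and 2 UMIs and *Sv2b* 8 and 6 UMIs, below the filter.

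The adrenaline cells formed 3 clusters, and each gave the same order against the noradrenaline cells for the members given next. The clusters are parts of the adrenaline class in which these members were picked, so the shared order is no separate result. *Cplx2* stood at 394, 476 and 394 CPM in clusters A (830 cells), B (715 cells) and C (124 cells), beside 77.4 CPM in noradrenaline cells. *Rph3a* stood at 77.4, 91.7 and 80.5 CPM beside 6.07 CPM, and *Snap25* at 81.9, 115 and 78.3 CPM beside 353 CPM. *Syn2* stood at 88.3, 119.9 and 101 CPM beside 382 CPM, and *Cadps* at 55.6, 79.3 and 69.3 CPM beside 210.2 CPM. The counts past 2-fold depended on the cluster. Against noradrenaline cells, 10 of 31 members were at least 2-fold lower in A, 4 of 31 in B and 6 of 32 in C. Of all genes compared, 8.97%, 4.84% and 9.47% were so. At least 2-fold higher were 2, 2 and 3 members, beside 3.94%, 4.87% and 7.47% of all genes. Between clusters B and A, 29 members were compared, 1 (*Syt9*, 19.0 and 7.44 CPM, a ratio of 2.55 with an interval of 1.47 to 4.74, below 10 CPM in A) was at least 2-fold higher in B, where 1.69% of all genes were, and 0 were at least 2-fold lower, where 0.148% were. The median B to A ratio of the members was 1.41, beside 1.13 over all genes compared. Cluster B was deeper, with a median of 5691 UMIs beside 2305 in A, and the red-cell genes summed to 192 CPM in B and 6851 CPM in A; their part in this was not tested.

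Beyond the 39 members, 99 further genes of vesicle docking and fusion were followed as a list. Of these, 67 were compared between the chromaffin types, and 4 (5.97%) were at least 2-fold higher in adrenaline cells, a share near the 4.20% of all genes. *Lin7a*, below 10 CPM in noradrenaline cells and a scaffold partner of *Cask*, stood at 48.3 and 6.83 CPM (7.06-fold, 3.68 to 15.6), *Cask* at 25.3 and 10.6 CPM (2.38-fold, 1.38 to 4.44), *Rims3* at 40.4 and 19.0 CPM (2.13-fold, 1.41 to 3.34) and the exocyst gene *Exoc4* at 42.3 and 20.5 CPM (2.06-fold, 1.39 to 3.18). None of the 67 was at least 2-fold higher in noradrenaline cells, as 5.14% of all genes were, and the largest ratio was that of the syntaxin *Stx2*, at 43.2 and 79.7 CPM (1.84-fold, 1.46 to 2.31). The 5 of this list at the highest level in chromaffin-like cells were *Pclo* (477 CPM), *Rabac1* (459 CPM), *Ppfia2* (195 CPM), *Syp* (180.3 CPM) and *Snap91* (150.1 CPM).

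Chromaffin-like cells were next set against the cortex-like and endothelial-like cells of the same suspension. Against cortex-like cells 28 members were compared: 21 were at least 2-fold higher in chromaffin-like cells, where 19.1% of all genes compared were, and 1, *Snap23*, was at least 2-fold lower, where 18.6% were. Against endothelial-like cells 28 members were compared, 23 were at least 2-fold higher (19.3% of all genes) and 1, again *Snap23*, at least 2-fold lower (21.9% of all genes). The median ratios were 19.6 and 25.4, beside 0.976 and 0.930 over all genes. Of the 28 members compared, 17 in the first and 19 in the second were under 10 CPM in the non-medullary class and were compared only because they were high in chromaffin-like cells, so the medians describe the members that passed.

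RNA released from broken cells can enter other droplets, so the levels outside the medulla were read against *Chga*, *Chgb*, *Th* and *Dbh*, 4 chromaffin genes that cortex and endothelium should lack. These stood at 0.233% to 0.528% of their chromaffin-like level in cortex-like and at 0.259% to 0.683% in endothelial-like cells. *Syt1* stood at 561 CPM in chromaffin-like cells and 1.26 CPM in cortex-like cells, 444-fold (313 to 655), *Rab3b* at 466 and 1.79 CPM, 260.0-fold (193 to 358), and *Rab3c* at 617 and 2.65 CPM, 233-fold (183 to 303). The interval of the cortex-like level overlapped the range of the 4 markers for these and for 10 members in all, although *Syt1*, at 0.225%, lay just below the range and some of the 10, such as *Sv2b* at 2.52% from 1 UMI, above it. The intervals of the other 29 members lay above the range in cortex-like cells, and those of 22 did in endothelial-like cells. Only the members were read in this way, so no share over all genes stands beside these counts.

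Among the members above that range were general fusion factors. *Napa* stood at 73.4 CPM in chromaffin-like, 82.7 CPM in cortex-like and 76.4 CPM in endothelial-like cells, and *Nsf* at 51.5, 44.2 and 48.3 CPM. *Vamp3* stood at 60.5, 43.5 and 89.8 CPM, and *Stxbp5* at 18.7, 11.5 and 18 CPM. *Rab3a* was 1.44-fold higher (1.34 to 1.55) in chromaffin-like than in cortex-like cells, at 139 and 96.1 CPM, and *Rab3d* stood at 20.3 and 29.2 CPM. *Vamp3* counts are uncertain in that *Camta1* overlaps the gene on the same strand.

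In some families the leading paralogue differed between chromaffin-like and cortex-like cells, and in others it did not. Shares were taken over the members of each family only. Further genes of a family, such as *Rims3*, were not counted. Of the UMIs of *Snap25* and *Snap23*, *Snap25* held 94.0% (92.6 to 95.3) in chromaffin-like cells, 6.13% (4.45 to 8.20) in cortex-like and 1.95% (0.637 to 4.50) in endothelial-like cells. *Snap23* itself, the SNAP25 relative of most tissues, stood at 8.99 CPM in chromaffin-like, 26.2 CPM in cortex-like, 44.0 CPM in endothelial-like and 49.0 CPM in immune-like cells. Of the UMIs of the CAPS genes, *Cadps* held 90.9% (88.8 to 92.7) in chromaffin-like and 6.11% (3.38 to 10.0) in cortex-like cells, where *Cadps2* stood at 8.75 CPM, near its 9.34 CPM in chromaffin-like cells. Among the Rab3 genes *Rab3c* held 49.7%, *Rab3b* 37.5%, *Rab3a* 11.2% and *Rab3d* 1.63% in chromaffin-like cells, while in cortex-like cells *Rab3a* held 74.1% and *Rab3d* 22.5%. Among *Vamp1* to *Vamp3*, *Vamp2* led in chromaffin-like cells with 54.4% (52.2 to 56.5) and in cortex-like cells with 47.7%. *Vamp3* held 73.3% (69.8 to 76.5) of their UMIs in endothelial-like cells. The leading member was also the same in chromaffin-like and cortex-like cells for the listed complexins (*Cplx2*, 98.9% and 99.6%) and SNAP adaptors (*Napa*, 79.1% and 89.9%). It was the same for *Rims1* and *Rims2* (*Rims2*, 94.4% and 99.8%) and for the Rab27 genes (*Rab27a*, 99.2% and 86.4%). *Sv2a* held 89.5% and 60.4% (46.0 to 73.55, from 53 UMIs) of the SV2 UMIs. *Syn2* held 80.7% and 66.7% (49.8 to 80.9, from 39 UMIs) of the UMIs of *Syn1* and *Syn2*. In cortex-like cells both intervals overlapped that of the next paralogue. The cortex-like level of *Syn2*, 0.699% of its chromaffin-like level, could not be told by its interval from the range of *Chga*, *Chgb*, *Th* and *Dbh*.

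**Figure D3:**
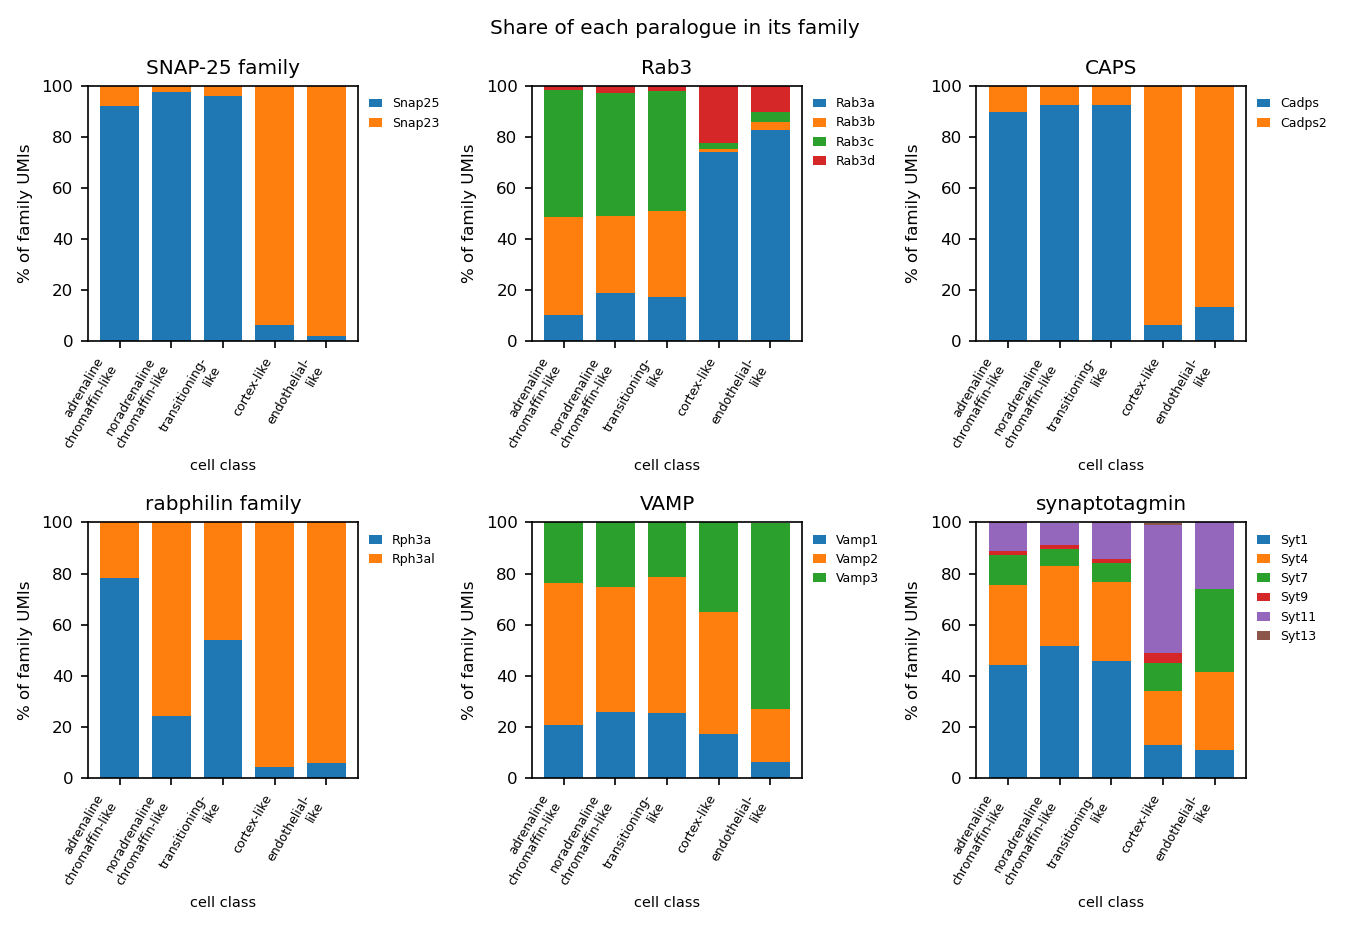
Share of each paralogue in the summed UMIs of the members of its family (vertical axis, percent) in 5 cell classes (horizontal axis) for 6 families. Family genes that are not members were not counted. *Snap25* and *Cadps* fill most of the bar in chromaffin-like and transitioning-like cells and little of it in cortex-like cells, where *Snap23* holds 93.9% and *Cadps2* 93.9%, and *Rph3a* fills 78.1% in adrenaline and 24.2% in noradrenaline cells.

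Transitioning-like cells held the machinery at a level near that of chromaffin-like cells, although their 7 chromaffin markers summed to 44740 CPM beside 81370 CPM and their 6 sustentacular markers to 632 CPM beside 10.0 CPM. The fibroblast markers stood at 275 CPM beside 5.65 CPM and the mural markers at 72.2 CPM beside 17.2 CPM, and their part in the result was not tested. Of 32 members compared, 2 were at least 2-fold higher in transitioning-like cells, where 5.61% of all genes were, and 2 at least 2-fold lower, where 1.08% were. Higher were *Syn2* (343 and 152 CPM, 2.27-fold, 2.08 to 2.47) and *Sv2c* (21.7 and 7.84 CPM, 2.77-fold, 1.90 to 4.01), which was below 10 CPM in chromaffin-like cells. Lower were *Cplx2* (191 and 392 CPM, a ratio of 0.486, 0.441 to 0.535) and *Rph3a* (28.8 and 74.8 CPM, 0.385, 0.298 to 0.491). The last 2 and *Syn2* were also among those that differed between the chromaffin types.

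The transitioning-like cells were therefore divided, after their values had been seen, into 121 cells in which *Pnmt* made up at least 0.2% of UMIs (8849 CPM of *Pnmt* in all) and 293 cells in which it did not (119 CPM). Of 34 members compared, 3 were at least 2-fold higher in the *Pnmt*-high cells (*Cplx2*, *Rph3a*, *Stx1a*), where 4.12% of all genes were, and 3 at least 2-fold lower (*Snap25*, *Stxbp5*, *Syn2*), where 4.73% were. *Stx1a* and *Rph3a* were below 10 CPM in the *Pnmt*-low cells. The red-cell genes summed to 40.2 CPM in *Pnmt*-high and 1766 CPM in *Pnmt*-low cells and the mural markers to 21.9 and 96.2 CPM, and their part in the result was not tested. *Cplx2* stood at 428 and 77.6 CPM (5.51-fold, 4.50 to 6.78), *Rph3a* at 69.5 and 9.33 CPM (7.44-fold, 4.22 to 13.9), *Snap25* at 138 and 279 CPM (2.02-fold higher in *Pnmt*-low, 1.65 to 2.51) and *Syn2* at 139 and 441 CPM (3.17-fold higher in *Pnmt*-low, 2.60 to 3.90). The members at least 2-fold apart between the chromaffin types thus mostly differed in the same direction between *Pnmt*-high and *Pnmt*-low transitioning-like cells. The exceptions were *Napb* (31.7 and 30.3 CPM) and *Cadps2* (14.6 and 11.7 CPM). *Cadps* stood at 98.7 and 187 CPM, 1.89-fold higher (1.48 to 2.44) in the *Pnmt*-low cells.

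Against adrenaline chromaffin-like cells, 33 members were compared in *Pnmt*-high transitioning-like cells: 3 were at least 2-fold higher (4.36% of all genes) and 0 at least 2-fold lower (0.804% of all genes). The 3 were *Sv2c* (30.5 and 8.97 CPM, 3.40-fold, 2.05 to 5.46), *Stx1a* (18.3 and 7.48 CPM, 2.44-fold, 1.28 to 4.39) and *Napb* (31.7 and 14.4 CPM, 2.20-fold, 1.37 to 3.40). *Sv2c* and *Stx1a* were below 10 CPM in adrenaline cells and were compared only through the class in which they were high. *Syt11*, at 257 and 134 CPM, was 1.92-fold higher (1.65 to 2.23). *Cplx2* differed little, at 428 and 449 CPM (a ratio of 0.953, 0.851 to 1.06). Against noradrenaline chromaffin-like cells, 30 members were compared in *Pnmt*-low transitioning-like cells, of which 0 were at least 2-fold higher (5.18% of all genes) and 0 at least 2-fold lower (0.615%). There *Cplx2* stood at 77.6 and 77.4 CPM (1.00, 0.768 to 1.31), *Syt1* at 693 and 751 CPM (0.923, 0.848 to 1.00) and *Syn2* at 441 and 382 CPM (1.15, 1.03 to 1.29). *Sv2c*, with 30 UMIs in *Pnmt*-low cells and 2 UMIs in noradrenaline cells, was below the filter with a ratio of 11.5 (2.92 to 99.6). The transitioning-like cells were deeper, with medians of 6151 and 4650 UMIs beside 3163 and 2646.5 in the adrenaline and noradrenaline cells.

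**Figure D4:**
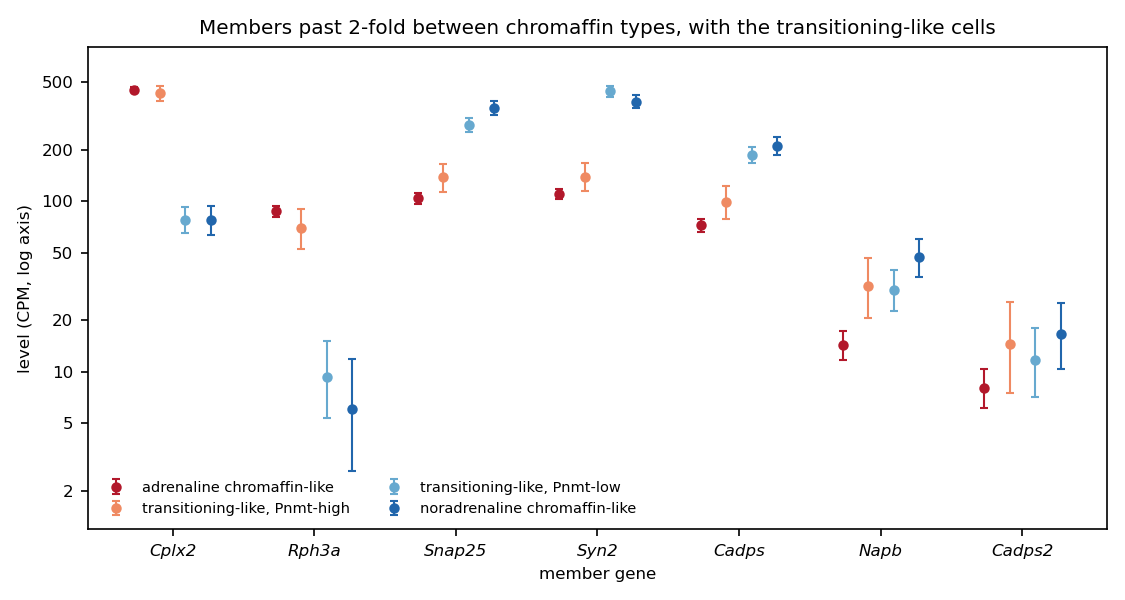
Level in CPM (vertical log axis) of the 7 members at least 2-fold apart between adrenaline and noradrenaline chromaffin-like cells (horizontal axis), in these 2 classes and in *Pnmt*-high and *Pnmt*-low transitioning-like cells, with Poisson 95% intervals. For *Cplx2*, *Rph3a*, *Snap25*, *Syn2* and *Cadps* the *Pnmt*-high cells lie near the adrenaline cells and the *Pnmt*-low cells near the noradrenaline cells, while for *Napb* and *Cadps2* the transitioning-like intervals overlap.

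In cycling chromaffin-like cells (median 5769.5 UMIs), which carried 2294 CPM of the 7 cortex markers beside 189 CPM in chromaffin-like cells and of which Scrublet called 11.9% as doublets, 30 members were compared with chromaffin-like cells. None was at least 2-fold higher (7.80% of all genes) and none at least 2-fold lower (0.995%). The intervals of 10 of the 30 ratios lay below 1 and of 0 above it, beside 607 below and 1733 above of all 8642 genes compared. *Syt1* stood at 409 and 561 CPM (0.729, 0.656 to 0.809), *Rab3c* at 466 and 617 CPM (0.755, 0.683 to 0.832) and *Rph3a* at 46.5 and 74.8 CPM (0.621, 0.447 to 0.844). The share of doublets and the cortex markers also differed between these classes, and their part in the ratios was not tested.

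In the glial-marker cluster (179 cells, 231103 UMIs) the sustentacular markers summed to 3851 CPM, beside 10.0 CPM in chromaffin-like cells. The members summed there to 1043 CPM (915 to 1183). Of 30 compared, 21 were at least 2-fold lower than in chromaffin-like cells, where 18.2% of all genes were, and 3 at least 2-fold higher, where 19.1% were, with a median ratio of 0.193 beside 0.968 over all genes. The intervals of 18 of the 30 ratios lay below 1 and of 3 above it, beside 1457 below and 1691 above of all 8665 genes compared. Of the 30, 9 were below 10 CPM in the cluster and were compared only because they were high in chromaffin-like cells (all 9 among the 21), and *Sv2c* was below 10 CPM in chromaffin-like cells. Chromaffin RNA was in these droplets too: *Chga*, *Chgb*, *Th* and *Dbh* stood at 2.23% to 10.9% of their chromaffin-like level. Only the members were read against that range, not all genes. Of the 39 members, 24 could not be told from it by their intervals and 15 lay above it. Those of highest level in chromaffin-like cells were among the 24, with *Rab3c* at 21.6 CPM (3.50% of its chromaffin-like level), *Rab3b* at 17.3 CPM (3.72%), *Syt4* at 30.3 CPM (7.80%), *Cplx2* at 43.3 CPM (11.0%) and *Syt1* at 77.9 CPM (13.9%). *Rab27a*, *Rph3a*, *Sv2a* and *Syn1* had 0 UMIs and entered the ratios at the floor of 3 counts, 13.0 CPM each. At this floor *Rab27a* was 9.37-fold, *Sv2a* 6.21-fold and *Rph3a* 5.76-fold lower than in chromaffin-like cells. By the exact intervals of the ratio, the fold was at least 7.6 for *Rab27a*, 5.0 for *Sv2a* and 4.7 for *Rph3a*.

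*Syt11*, a synaptotagmin that does not bind calcium and is known from vesicle traffic in glia and neurons, stood at 286 CPM (66 UMIs), 2.15-fold higher (1.65 to 2.76) than in chromaffin-like cells. It held 68.8% (58.5 to 77.8) of the UMIs of the synaptotagmin members there. After thinning it was found in 21.1% (14.3 to 29.4) of cells in the cluster, 11.4% of chromaffin-like and 0.375% of endothelial-like cells. *Rab3d* stood at 43.3 CPM (10 UMIs; 2.13-fold, 1.00 to 4.02) and *Sv2c* at 38.9 CPM (9 UMIs; 4.97-fold, 2.18 to 10.0). *Sv2b* stood at 17.3 CPM from 4 UMIs, beside 1.61 CPM in chromaffin-like cells. *Vamp3* (64.9 CPM), *Vamp2* (56.2 CPM), *Cadps* (56.2 CPM, 13 UMIs), *Rab3a* (43.3 CPM), *Napa* (38.9 CPM), *Nsf* (21.6 CPM), *Stxbp5* (21.6 CPM), *Unc13b* (21.6 CPM), *Napb* (17.3 CPM), *Cadps2* (8.65 CPM) and *Rims1* (8.65 CPM, 2 UMIs) made up the 15. *Sv2c* shares its strand with *Gm20075*. The cluster also held 2198 CPM of the 6 fibroblast markers, all from 3 collagen genes with the other 3 at 0, and its red-cell genes summed to 8741 CPM with 3 of 179 cells holding 5 or more hemoglobin UMIs.

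**Figure D5:**
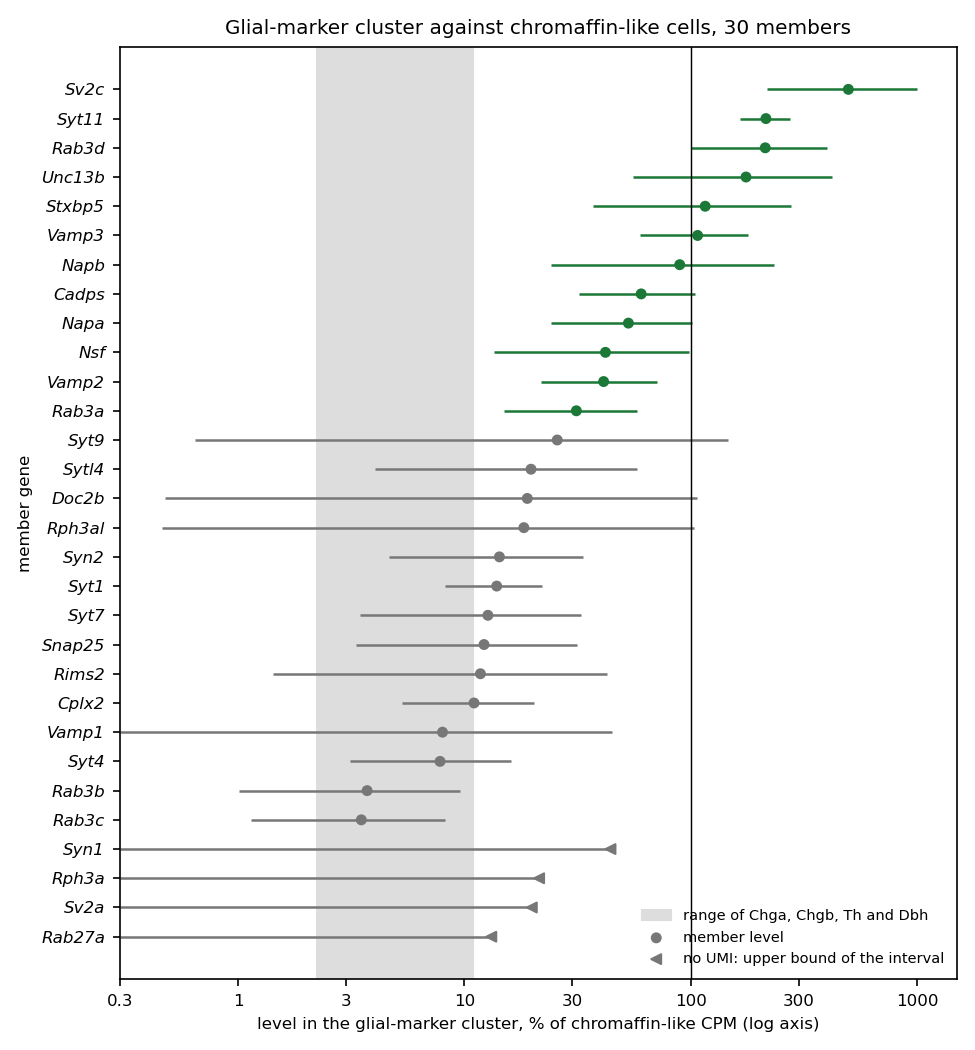
Level in the glial-marker cluster as a percentage of the chromaffin-like level (horizontal log axis, drawn from 0.3) for the 30 members compared (vertical axis), with 95% intervals for counting error and the range of *Chga*, *Chgb*, *Th* and *Dbh* shaded. *Sv2c*, *Syt11* and *Rab3d* lie to the right of 100%, *Rab3b* and *Rab3c* lie in the shaded range, and green marks members whose interval lies above it.

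*Syt11* stood at 134 CPM in adrenaline, 127 CPM in noradrenaline, 199 CPM in transitioning-like and 286 CPM in glial-marker cells, and *Sv2c* at 8.97, 1.52, 21.7 and 38.9 CPM in the same order. The remaining non-medullary classes were shallow for these genes. In the 626 immune-like cells 12 members had 0 UMIs, and those of highest level were *Napa* (83.4 CPM), *Snap23* (49.0 CPM), *Vamp3* (45.9 CPM) and *Nsf* (45.2 CPM). In the 89 fibroblast-like cells *Chga*, *Chgb*, *Th* and *Dbh* stood at 3.43% to 9.17% of their chromaffin-like level. There 12 members lay above that range, among them *Vamp3* (91.4 CPM), *Napa* (87.8 CPM), *Vamp2* (77.3 CPM) and *Rab27b*, whose 21.1 CPM came from 6 UMIs. Neither the count at 0 UMIs nor that above the range was made over all genes.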

How the data were processed

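Per the labels, the authors aligned the reads to mm10 with Cell Ranger 4.0.0 and deposited a matrix of UMI counts, which were not normalised. A cell was kept with 500 to 5000 genes and at most 20% mitochondrial UMIs. Cells were clustered in Seurat 5.3.0 (R 4.3.3; 2000 variable features, 10 principal components, resolution 0.4) on all genes, the members included. Scrublet, run in scanpy 1.11.5, called 669 doublets, which were kept. Naming a cluster took 3 or more markers of a list, each present in 50% or more of the cells (25% for the sustentacular and cycling lists), and the adrenaline name took *Pnmt* in 50% or more. These percentages were set after the data were seen, as were the split of the transitioning-like cells, the comparison of the adrenaline clusters and the exclusions by hemoglobin and *Pnmt* UMIs. The members and lists were chosen with earlier results of these data known.

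UMIs were summed over the cells of a class. A gene was compared where its mean over both classes was at least 10 CPM, and counted where the fold was at least 2. Against 0 UMIs a floor of 3 counts was used. For shares at equal depth each cell was thinned to 1000 UMIs, leaving out shallower cells. Intervals were computed in scipy 1.17.1 and the code was tested on simulated data. Named genes beyond the members were, of the 99 further genes, the 5 with the largest fold either way between the chromaffin types and the 5 at the highest level. Gene overlaps were read from GENCODE's annotation of GRCm38, the assembly of mm10.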

Additional observations from a re-analysis of the deposited data

How the results depend on the processing

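No paired analysis was possible because 1 library was made. Of the counts recomputed under the alternatives, 90 stayed within 1.5 times the reported count and 20 did not. Shares over all genes were counted only at the reported settings, so the counts under the alternatives describe the members alone. With at least 50 CPM, 1 member was higher in adrenaline and 3 in noradrenaline cells, 11 were higher in chromaffin-like than in cortex-like and 12 than in endothelial-like cells, 1 was higher in transitioning-like cells, and in the glial-marker cluster 1 was higher and 11 were lower. With no filter on low values, 4 were higher in adrenaline, 8 in noradrenaline, 5 in transitioning-like and 7 in glial-marker cells. With a fold of 1.5, the counts were 5 in adrenaline, 9 in noradrenaline and 6 in transitioning-like cells. With each cell named from its own marker UMIs, 1 was higher in transitioning-like cells, and 1 was higher and 11 were lower in glial-marker cells. With cells thinned to 1000 UMIs, 4 were higher in transitioning-like cells. In the glial-marker cluster 1 was higher without Scrublet doublets and 5 by the mean over cells. Under stricter limits on cells (1000 genes or more, mitochondrial share of 10% or less) no glial-marker cluster was named. The median of that cluster in the main setting was 707 genes, so the limit of 1000 genes left out most of its cells. For the filter and fold settings the shifts in counts follow from their construction. For the other shifts in counts the cause was not tested. Of the recomputed adrenaline to noradrenaline ratios of single members, 0 were reversals of a member past 2-fold. *Cplx2* ran from 2.66 to 6.61, *Rph3a* from 6.52 to 17.1 and *Snap25* from 0.288 to 0.349, each past 2-fold in 11 of 11 alternatives. *Cadps2* ran from 0.295 to 0.610 and passed 2-fold in 6 of 11. *Syt9*, at 0.693, was 1.24 when cells were thinned to 1000 UMIs, and the cause was not tested. Counts of 1 to 10 UMIs, as for *Rab27b*, *Syt13*, *Sv2b* and many members in the glial-marker cluster, limit what this depth can show.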
